A study of Mus musculus with 12 samples.

Results

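The genes described here were 33 symbols of glycolysis and of the transcriptional response to low oxygen. There were 19 for glucose transporters, glycolytic enzymes and their regulators and the lactate exporter Slc16a3, and 14 for Hif1a and other targets of the hypoxia-inducible factors (HIF). A row of the expression table was taken as a member when the symbol in its name was one of these. They matched 34 of 55401 rows, since Aldoa is listed under 2 gene identifiers, and all 34 passed the filter of at least 1 FPKM (fragments per kilobase of transcript, scaled to the mapped fragments of the library) in at least 3 libraries, which 15813 genes passed. Each was measured by RNA sequencing in 12 mouse oral tumours. By the labels, MTC-Q1 cells, a single mouse oral cancer line, had been injected into the oral tissue of C57BL/6 mice. Treatment began when tumours reached 100 mm3. The 4 groups of 3 libraries received an isotype control, IgG1-Fc (Ctrl-IgG), an antibody against the macrophage receptor CSF1R (aCSF1R), recombinant interleukin-10 fused with Fc (IL-10-Fc), or BF10, a fusion of the CSF1R antibody with interleukin-10. The treatment protocol gives 6 doses and the design text 4, and the labels give neither age nor sex. The labels do not say whether the libraries of a group came from separate animals, so the p-values measure the spread between these libraries.

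Glycolysis converts glucose to pyruvate through a fixed order of enzymes, from hexokinase to pyruvate kinase, lactate dehydrogenase turns pyruvate into lactate, and exporters carry lactate out of the cell. HIF-1, a dimer of HIF-1alpha and ARNT, switches on most of these enzymes when oxygen is short, along with genes of blood vessel growth, acid handling and mitophagy. Solid tumours, head and neck cancers among them, often have this programme switched on, in the tumour cells and in the infiltrating myeloid cells.

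The transcripts of the pathway did not move as a block between treatments. In BF10 and IL-10-Fc tumours Slc16a3 (the lactate exporter MCT4) and Pdk1 (the kinase that shuts pyruvate dehydrogenase) were lower than in Ctrl-IgG, and Aldoc (a fructose-bisphosphate aldolase), Car9 (carbonic anhydrase IX, which handles acid at the cell surface) and Egln3 (the oxygen sensor PHD3) were higher. Lower values of Gapdh and Eno1 were accompanied by higher values of genes that share most of their sequence. The core enzymes Ldha, Pgk1, Tpi1, Pkm and Gpi1 were called in no comparison. No member was called between aCSF1R and Ctrl-IgG, where 0% of all tested genes were, or between BF10 and IL-10-Fc, where 0.0126% were. In bulk tissue, fewer cells of a type and less RNA per cell cannot be told apart.

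A split of the libraries preceded all of these comparisons. Xist, which silences an X chromosome in females, reached at most 0.04 FPKM under Ctrl-IgG or aCSF1R, and every IL-10-Fc or BF10 tumour held 17.1 to 30.7 FPKM. The Y-linked gene Eif2s3y ranged from 4.23 to 11.3 FPKM in the former, was listed at 0 in every IL-10-Fc library and reached 3.29 FPKM in BF10 replicate 3. H2-Ea, an MHC class II gene that C57BL/6 mice do not express, was at most 0.27 FPKM in the former and at least 552.8 FPKM in the latter. Any comparison of IL-10-Fc or BF10 with Ctrl-IgG or aCSF1R therefore set apart tumours that also differed in sex-linked and strain-linked transcripts. Simple epithelial markers, described below, split in the same way, with sums of at most 8.9 FPKM in the former and at least 511 FPKM in the latter. Treatment and these differences cannot be told apart. The libraries also differed in a second way. The FPKM sum was 819001 to 976950 in 4 of them, namely replicate 2 of Ctrl-IgG, both of the replicates 1 and 2 of IL-10-Fc and replicate 1 of BF10, against 637596 to 701275 in the other 8, and mitochondrially encoded transcripts made up 6.57% to 9.04% of the sum, against 2.99% to 3.61%. The titles carry a number from 1 to 7 after the letter C, which no source used here explains. It was 1, 2, 2 and 4 in these 4 libraries, whereas 5, 6 and 7 occurred only among the other 8, which also held a 1 and both libraries with a 3. Called members are therefore also described without these 4 libraries. The table holds no read counts. From the steps between the lowest values of short genes, the depth of the libraries was estimated at 0.936 to 1.41 times that of Ctrl-IgG replicate 1.

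**Figure D1:**
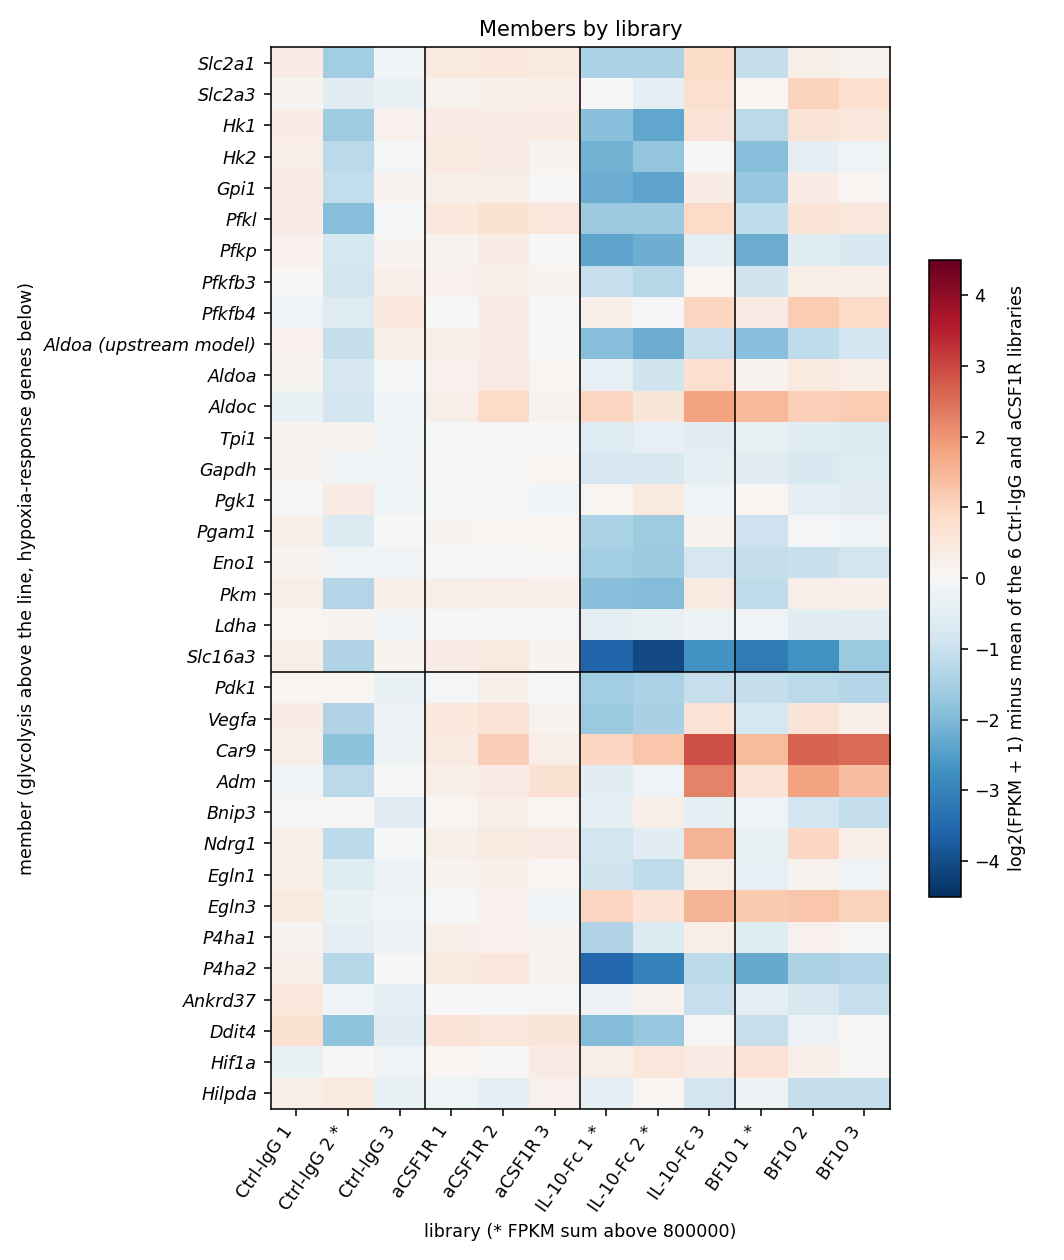
Each cell is a member (row) in a library (column), coloured by log2(FPKM + 1) minus the gene's mean over the 6 Ctrl-IgG and aCSF1R libraries. Asterisks mark the 4 libraries with FPKM sums above 800000, in which Hk1, Pfkl, Gpi1, Pkm and Slc2a1 sit lower than in the other libraries of their groups, whereas Slc16a3 is low and Car9 mostly high across IL-10-Fc and BF10.

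A first count of the members was made by limma on log2(FPKM + 1) over all 12 libraries, with genes called at a Benjamini-Hochberg adjusted p under 0.05 and a fold of at least 1.5. In BF10 against Ctrl-IgG 3 of 34 members were called higher, 8.82%, where 11.8% of all tested genes were, and 3 were called lower, 8.82%, where 13.2% of all tested genes were. In IL-10-Fc against Ctrl-IgG 3 were higher (8.82%, background 10.1%) and 6 lower (17.6%, background 23.6%). In BF10 against aCSF1R 1 was higher (2.94%, background 11.0%) and 7 lower (20.6%, background 14.0%). These shares lay near or below the background, except for the lower members in the last comparison. Those included Eno1, Gapdh and the Aldoa row upstream of the main gene, whose values are described below as uncertain. With members summed with genes that share their sequence, 5 were called in that comparison, 1 of them higher. These 5 were 14.7% of the members, where 25% of all tested genes were called. With median-of-ratios size factors in place of FPKM as deposited, the members split into 5 higher and 5 lower in IL-10-Fc against Ctrl-IgG and into 4 higher and 5 lower in BF10 against aCSF1R. The median log2 fold change of the members was 0.05 in BF10 against Ctrl-IgG, with -0.12 over all tested genes, -0.41 in IL-10-Fc against Ctrl-IgG, with -0.39, and -0.48 in BF10 against aCSF1R, with -0.21. In the moderated F test over the 4 groups 9 members passed an adjusted p of 0.05, as did 34.1% of all tested genes. The BF10 and IL-10-Fc comparisons share the Ctrl-IgG libraries, and both BF10 comparisons share the BF10 libraries.

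Slc16a3 among the glycolysis genes and Pdk1 among the hypoxia genes had the smallest F test p, each with a limma adjusted p of 0.000559. Both genes, with Egln3 and Eno1, were called in 3 comparisons, more than any other member, and the bases before their RefSeq start sites are printed for this reason. The letters searched were ACGTG and GCGTG, the core that HIF binds, on both strands, where CACGT and CACGC are the same motifs read from the other strand, and a CACGTG counts on both. Capitals mark each match. Positions are those of GRCm38.p6, and each stretch is written 5′ to 3′ on the strand of the gene.
Pdk1, chr2:71872974-71873223, plus strand: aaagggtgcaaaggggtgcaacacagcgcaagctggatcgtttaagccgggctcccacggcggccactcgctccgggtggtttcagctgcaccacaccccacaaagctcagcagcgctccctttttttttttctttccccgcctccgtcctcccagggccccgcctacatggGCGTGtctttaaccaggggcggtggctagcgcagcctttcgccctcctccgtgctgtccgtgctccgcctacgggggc
Slc16a3, chr11:120948817-120949052, plus strand: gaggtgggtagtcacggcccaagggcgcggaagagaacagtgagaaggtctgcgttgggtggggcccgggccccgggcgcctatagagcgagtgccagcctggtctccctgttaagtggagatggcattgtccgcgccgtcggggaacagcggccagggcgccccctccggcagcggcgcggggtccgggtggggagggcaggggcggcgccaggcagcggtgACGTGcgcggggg
Egln3, chr12:54203875-54204124, minus strand: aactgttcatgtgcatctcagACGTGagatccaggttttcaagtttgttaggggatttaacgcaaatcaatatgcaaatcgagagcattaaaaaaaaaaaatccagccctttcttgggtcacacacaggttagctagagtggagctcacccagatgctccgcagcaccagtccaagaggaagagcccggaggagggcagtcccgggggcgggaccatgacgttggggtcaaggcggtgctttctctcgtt
Eno1, chr4:150236458-150236707, plus strand: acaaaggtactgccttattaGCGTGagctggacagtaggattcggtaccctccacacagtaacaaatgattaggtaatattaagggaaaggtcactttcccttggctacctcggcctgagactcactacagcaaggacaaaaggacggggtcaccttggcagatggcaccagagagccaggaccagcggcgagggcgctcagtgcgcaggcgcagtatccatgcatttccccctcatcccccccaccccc
Each stretch held 1 match. RefSeq gives 2 windows for Pdk1 and 3 for Eno1, and the one printed is that of the first start along the gene, since the bases before the other starts lie wholly or almost wholly in annotated exons. The full windows of 300 bases reach past the printed bases. Counted over these, the printed windows of Pdk1, Slc16a3 and Eno1 held 2 matches each and that of Egln3 held 1. By the same count the other window of Pdk1 held 0 matches and the other windows of Eno1 held 2 each. RefSeq windows of 300 bases, 250 before and 50 after the start, were matched for 31 of the 33 symbols. A match stood in 36 of their 43 windows, 83.7%, in 59.8% of the windows of genes tested and in 43.8% of all 32851 windows. The windows differed in base composition in the same order, with a median GC content of 64.3%, 60.0% and 52.7%. A match describes letters only.

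Slc16a3 (ENSMUSG00000025161, GRCm38 chromosome 11, 120948480 to 120960868) exports lactate from highly glycolytic cells. The Ctrl-IgG libraries held 213, 68.4 and 196 FPKM and the aCSF1R libraries 218, 236 and 191 FPKM. Values fell to 13.4, 9.52 and 25.9 FPKM under IL-10-Fc and to 18.4, 25.5 and 54.5 FPKM under BF10. No IL-10-Fc or BF10 library reached the lowest of the other 6. The change on the log2 scale was -2.23 (SE 0.51, limma adjusted p 0.00844) in BF10 against Ctrl-IgG. It was -3.16 (SE 0.51, limma adjusted p 0.000947) in IL-10-Fc against Ctrl-IgG and -2.82 (SE 0.51, limma adjusted p 0.00239) in BF10 against aCSF1R. Without the 4 libraries named above the changes were -2.42, -2.93 and -2.49, all called. The call held in all 26 alternatives in each of these comparisons.

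Pdk1 (ENSMUSG00000006494, chromosome 2, 71873224 to 71903858), a HIF target, phosphorylates pyruvate dehydrogenase and so keeps pyruvate out of the citrate cycle. Control tumours held 49.5, 50.1 and 38.0 FPKM and those given aCSF1R 45.4, 54.8 and 44.8 FPKM. The IL-10-Fc tumours held 15.0, 16.7 and 22.5 FPKM and the BF10 tumours 22.0, 19.7 and 18.1 FPKM. Again the pairs of groups did not overlap, and the libraries with high FPKM sums differed from the others of their groups by -0.02 on average on the log2 scale, with -0.48 in IL-10-Fc. The change on the log2 scale was -1.16 (SE 0.21, limma adjusted p 0.00251) in BF10 against Ctrl-IgG, -1.31 (SE 0.21, 0.000945) in IL-10-Fc against Ctrl-IgG and -1.23 (SE 0.21, 0.00172) in BF10 against aCSF1R. These calls held in all 26 alternatives too.

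P4ha2 (ENSMUSG00000018906, chromosome 11, 54100095 to 54131665), a subunit of the collagen prolyl hydroxylase, gave 60.2, 20.6 and 50.4 FPKM for Ctrl-IgG and 69.7, 72.9 and 57.7 FPKM for aCSF1R. It gave 3.50, 5.37 and 22.2 FPKM for IL-10-Fc and 9.77, 18.4 and 20.3 FPKM for BF10. The lowest Ctrl-IgG library, replicate 2, lay just above all BF10 libraries and below the highest IL-10-Fc library. The gene was called lower in IL-10-Fc against Ctrl-IgG (-2.22, SE 0.58, limma adjusted p 0.0131) and in BF10 against aCSF1R (-2.04, SE 0.58, limma adjusted p 0.02495). In BF10 against Ctrl-IgG it was not (-1.31, SE 0.58, limma adjusted p 0.126), but without the 4 libraries it was, at -1.47 (SE 0.14, limma adjusted p 0.000824). The call in BF10 against aCSF1R was lost in 8 of 26 alternatives and that in IL-10-Fc against Ctrl-IgG in 5. Fibroblast markers moved the other way. Their summed level over 8 genes ranged from 197 to 663 FPKM under Ctrl-IgG and from 543 to 653 FPKM under aCSF1R. It ranged from 1068 to 2491 FPKM under IL-10-Fc and from 1677 to 2028 FPKM under BF10. In BF10 against Ctrl-IgG, which did not call P4ha2, 5 of the 8 were called higher (background 11.8%). In the comparisons that called it, 4 were higher in IL-10-Fc against Ctrl-IgG (background 10.1%) and 2 in BF10 against aCSF1R (background 11.0%). The part of these markers in the result was not tested.

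Car9 (ENSMUSG00000028463, chromosome 4, 43506966 to 43513729) is among the most specific HIF-1 targets known. Ctrl-IgG tumours held 10.8, 1.70 and 7.30 FPKM and aCSF1R tumours 11.9, 20.1 and 11.2 FPKM. IL-10-Fc tumours held 18.2, 22.0 and 71.3 FPKM and BF10 tumours 25.4, 61.3 and 55.9 FPKM. Every BF10 and IL-10-Fc library was above every Ctrl-IgG library, and aCSF1R replicate 2 overlapped with IL-10-Fc. The change on the log2 scale was 2.82 (SE 0.62, limma adjusted p 0.00712) in BF10 and 2.31 (SE 0.62, limma adjusted p 0.0158) in IL-10-Fc against Ctrl-IgG. In BF10 against aCSF1R it was 1.61 (SE 0.62, limma adjusted p 0.0837), not called, and 2.00 (SE 0.27, limma adjusted p 0.00156) without the 4 libraries, called. The call in BF10 against Ctrl-IgG was lost in 1 of 26 alternatives and that in IL-10-Fc against Ctrl-IgG in 3.

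Egln3 (ENSMUSG00000035105, chromosome 12, 54178981 to 54203860) hydroxylates HIF-1alpha for degradation and is itself induced by HIF. Its level was 24.5, 14.3 and 15.4 FPKM after Ctrl-IgG and 17.1, 20.6 and 16.2 FPKM after aCSF1R. After IL-10-Fc it was 36.0, 27.5 and 52.7 FPKM and after BF10 41.8, 43.9 and 37.6 FPKM, with no overlap between the pairs of groups. The rise was 1.18 (SE 0.27, limma adjusted p 0.00886) in BF10 against Ctrl-IgG, 1.05 (SE 0.27, limma adjusted p 0.0131) in IL-10-Fc against Ctrl-IgG and 1.16 (SE 0.27, limma adjusted p 0.0101) in BF10 against aCSF1R, in log2 units. These calls were lost in 1, 4 and 3 of 26 alternatives. Its constitutive relative Egln1 (PHD2) was 13.2 to 37.4 FPKM over the 12 libraries and was called in no comparison. Within a library, the ratio of Egln3 to Egln1 in FPKM was 0.497 to 0.695 after Ctrl-IgG or aCSF1R and 1.29 to 2.26 in the others.

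Aldoc (ENSMUSG00000017390, chromosome 11, 78322968 to 78327781) is the aldolase form best known from brain. It was the only glycolysis member called higher against Ctrl-IgG in the 12 libraries. Values were 9.28, 6.09 and 10.8 FPKM for Ctrl-IgG and 14.2, 21.9 and 13.4 FPKM for aCSF1R. For IL-10-Fc they were 24.1, 17.6 and 43.4 FPKM and for BF10 34.2, 25.8 and 27.4 FPKM. All BF10 and IL-10-Fc libraries were above all Ctrl-IgG libraries, and aCSF1R replicate 2 was above IL-10-Fc replicate 2. The change on the log2 scale was 1.65 (SE 0.34, limma adjusted p 0.00478) in BF10 and 1.53 (SE 0.34, limma adjusted p 0.00566) in IL-10-Fc against Ctrl-IgG, and both calls held in all 26 alternatives. Aldoc remained a minor aldolase transcript, at 0.016 to 0.033 times the FPKM of the main Aldoa gene in Ctrl-IgG and aCSF1R and 0.037 to 0.064 times in IL-10-Fc and BF10. It was also the only member with an unadjusted p under 0.05 in aCSF1R against Ctrl-IgG (0.85, SE 0.34, p 0.0291, limma adjusted p 0.959).

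**Figure D2:**
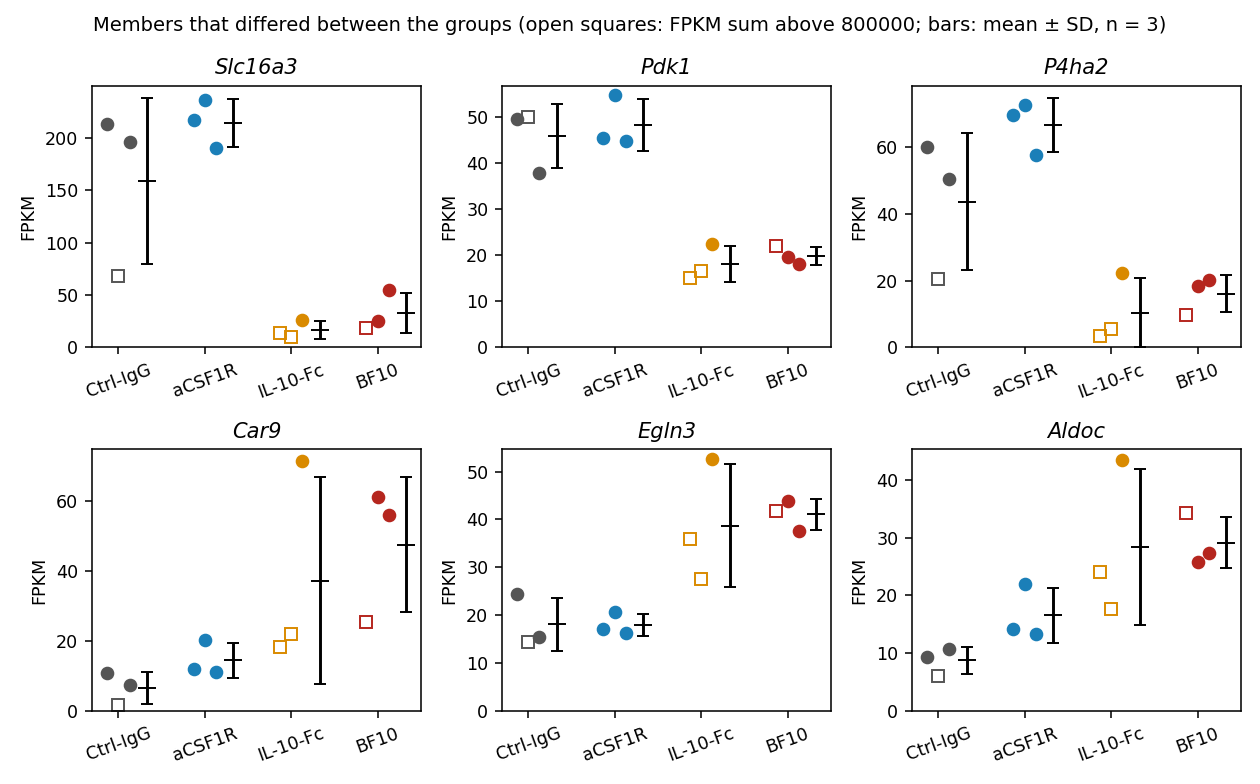
FPKM of 6 called members by treatment group, with 1 point per library, open squares for the 4 libraries with FPKM sums above 800000, and bars for the mean ± SD (n = 3). Slc16a3, Pdk1 and P4ha2 are lower and Car9, Egln3 and Aldoc higher in IL-10-Fc and BF10, and the lowest P4ha2 value of Ctrl-IgG lies beside those of BF10.

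The falls of Eno1 and Gapdh need their relatives beside them. Eno1 (ENSMUSG00000063524, chromosome 4, 150236721 to 150248879), the enolase of most tissues, held 1036, 822 and 852 FPKM under Ctrl-IgG and 921, 933 and 957 FPKM under aCSF1R. Under IL-10-Fc it held 309, 292 and 540 FPKM and under BF10 435, 463 and 514 FPKM, with no overlap between the pairs of groups. The change on the log2 scale was -0.93 (SE 0.24, limma adjusted p 0.0169) in BF10 against Ctrl-IgG, -1.30 (SE 0.24, 0.00241) in IL-10-Fc against Ctrl-IgG and -0.996 (SE 0.24, 0.0126) in BF10 against aCSF1R. The near-identical gene Eno1b holds 70.5% of the 50-base words of the Eno1 transcripts. Eno1b ranged from 19.8 to 52.7 FPKM after Ctrl-IgG or aCSF1R and from 349.5 to 632 FPKM in the 6 others. Summed with Eno1b and the pseudogene Gm4735, Eno1 came to 1063 ± 154 FPKM under Ctrl-IgG and 1083 ± 28.2 FPKM under aCSF1R. The sum was 894 ± 316 FPKM under IL-10-Fc and 1045 ± 45.7 FPKM under BF10 (SD, n = 3 each). The log2 fold change of the sum was -0.02 (limma adjusted p 0.975) in BF10 against Ctrl-IgG, -0.30 (limma adjusted p 0.367) in IL-10-Fc against Ctrl-IgG and -0.05 (limma adjusted p 0.899) in BF10 against aCSF1R. Of 26 alternatives, this sum included, 4, 1 and 3 lost the Eno1 calls, among them the fits without Ctrl-IgG replicate 1 (-0.83, limma adjusted p 0.0728) or BF10 replicate 2 (-0.93, limma adjusted p 0.0557) in BF10 against Ctrl-IgG.

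Gapdh (ENSMUSG00000057666, chromosome 6, 125161715 to 125166467), the dehydrogenase in the middle of the pathway, gave a like picture. Ctrl-IgG tumours held 1271, 1044 and 1035 FPKM and aCSF1R tumours 1199, 1180 and 1213 FPKM. Values were 679.8, 698 and 842 FPKM with IL-10-Fc and 812, 721 and 763 FPKM with BF10. It was called lower in IL-10-Fc against Ctrl-IgG (-0.59, SE 0.19, limma adjusted p 0.0300) and in BF10 against aCSF1R (-0.65, SE 0.19, limma adjusted p 0.0262), but these calls were lost in 15 and 11 of 26 alternatives, and size factors brought the first to -0.097 (limma adjusted p 0.815). The processed pseudogene Gm13394 (chromosome 2, 28933610 to 28934609), which holds 65.7% of the 50-base words of Gapdh, reached at most 0.33 FPKM under Ctrl-IgG or aCSF1R and 159.9 to 247 FPKM in the 6 others. With Gm13394 added, the changes were -0.23 (limma adjusted p 0.354) and -0.30 (limma adjusted p 0.275), not called. Reads from near-identical copies can be split between rows by the authors' quantification, so the values of Eno1 and Gapdh alone are uncertain. Whether the copies are transcribed or collect reads of the parent genes was not tested. In all, 7 members shared at least 10% of their 50-base words with 10 other listed genes: Pgk1, Pgam1, Pkm, Gpi1 and Bnip3 besides these. Slc16a3, Pdk1, Aldoc, Car9, Egln3 and P4ha2 were not among them.

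**Figure D3:**
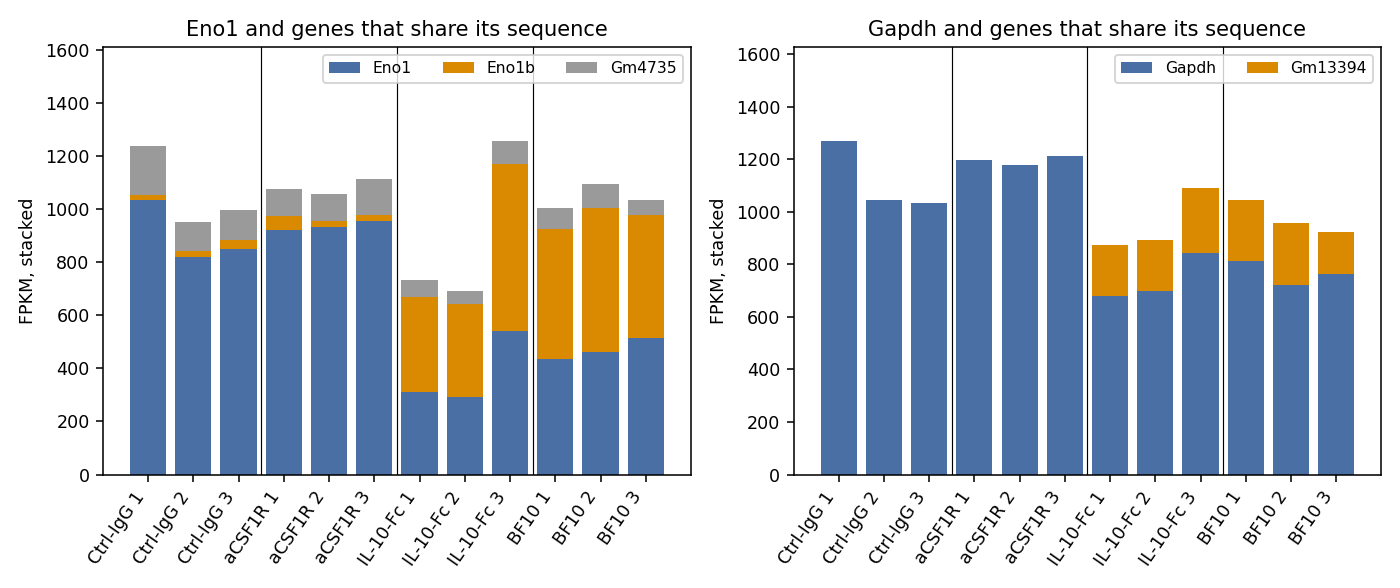
Stacked FPKM of Eno1 with Eno1b and Gm4735 (left) and of Gapdh with Gm13394 (right) in each of the 12 libraries. The orange parts, Eno1b and Gm13394, are small or invisible in Ctrl-IgG and aCSF1R and large in every IL-10-Fc and BF10 library.

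Bnip3 and an upstream model of Aldoa completed the called members. Bnip3 (ENSMUSG00000078566, chromosome 7, 138890836 to 138909519), a mitophagy receptor, had 158, 155 and 104 FPKM with Ctrl-IgG and 159, 176 and 162 FPKM with aCSF1R. With IL-10-Fc it had 115, 179.8 and 113 FPKM and with BF10 131, 82.4 and 71.4 FPKM, and all BF10 libraries were below all aCSF1R libraries. Of the comparisons, it was called lower in BF10 against aCSF1R alone (-0.84, SE 0.28, limma adjusted p 0.0478), and 14 of 26 alternatives lost the call. The Aldoa model ENSMUSG00000114515 (chromosome 7, 126800790 to 126809108) lies just upstream of the main Aldoa gene ENSMUSG00000030695 (126795234 to 126800751) on the same strand. It had 6.47, 2.10 and 6.79 FPKM with Ctrl-IgG and 6.90, 7.30 and 5.68 FPKM with aCSF1R. It had 0.75, 0.38 and 2.21 FPKM with IL-10-Fc and 0.79, 1.94 and 2.58 FPKM with BF10. It was called lower in IL-10-Fc against Ctrl-IgG (-1.51, SE 0.43, limma adjusted p 0.0190) and in BF10 against aCSF1R (-1.51, SE 0.43, limma adjusted p 0.0243), and each call was lost in 6 of 25 alternatives. The main Aldoa gene was 276 to 864 FPKM and was not called. Since the models adjoin, the value of the upstream one is uncertain.

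The uncalled members divide by role. Among the glucose transporters, Slc2a1 (GLUT1) was 17.6 to 97.1 FPKM and Slc2a3 (GLUT3) 0.89 to 4.30 FPKM. Hexokinases Hk1 and Hk2 were 5.28 to 46.2 and 8.26 to 53.9 FPKM, and phosphoglucose isomerase Gpi1 was 57.1 to 386 FPKM. The phosphofructokinases Pfkl and Pfkp were 13.1 to 97.1 and 18.3 to 127 FPKM, and the bifunctional enzymes that set fructose-2,6-bisphosphate, Pfkfb3 and Pfkfb4, were 3.94 to 13.9 and 2.43 to 10.2 FPKM. Lower in the pathway, Pgk1 was 464 to 886, Pgam1 165 to 604, Pkm 250 to 1285 and Ldha 720 to 1108 FPKM, among the most abundant members per length. Tpi1 lay between 628 and 775 FPKM after Ctrl-IgG or aCSF1R and between 459 and 560.2 FPKM in the others, but its log2 fold change of -0.52 (SE 0.18) in BF10 against Ctrl-IgG did not pass the test (limma adjusted p 0.0550). Among the hypoxia genes, the vessel growth factor Vegfa was 10.1 to 53.6, the vasodilator peptide Adm 0.27 to 12.9 and Ndrg1 35.1 to 235 FPKM. The other collagen hydroxylase P4ha1 was 23.9 to 78.0, the mTORC1 inhibitor Ddit4 28.9 to 184, Ankrd37 16.9 to 52.1, the lipid droplet protein Hilpda 32.6 to 95.6 and Hif1a itself 36.6 to 71.7 FPKM.

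Much of this range lay between libraries of 1 group. In the 4 libraries with FPKM sums above 800000, 23 of 34 members (67.6%) were lower than in the other libraries of their own group in all 3 groups concerned, as were 53.0% of all tested genes. The mean shift on the log2(FPKM + 1) scale was -2.10 for Hk1, -2.08 for Pfkl, -1.98 for Gpi1, -1.76 for Pkm and -1.74 for Slc2a1. It was 0.49 for Pgk1 and 0.66 for Hilpda, which were higher in these libraries in all 3 groups. Hk1, for example, was 9.28 FPKM in Ctrl-IgG replicate 2 and 38.8 and 34.7 FPKM in the other libraries of that group. Across the 34 members the shift had a Spearman correlation of -0.44 with the GC content of the annotated transcript, and of -0.53 across 15795 tested genes. Genes share the libraries and are not independent, so these are descriptions. What set these libraries apart was not tested.

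**Figure D4:**
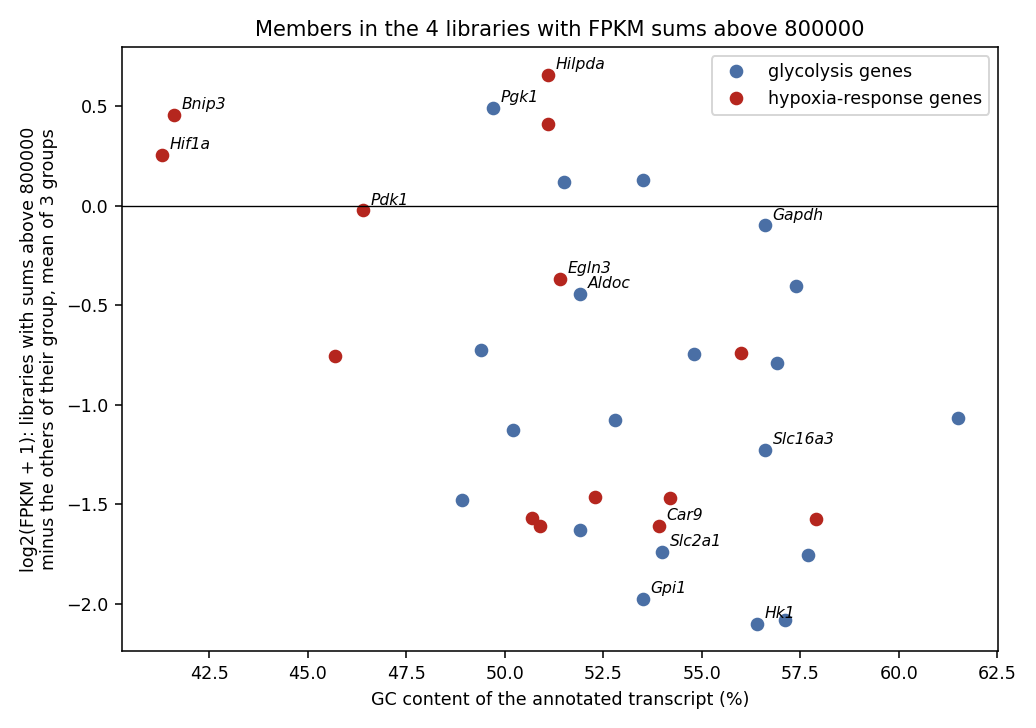
Shift of each member, as log2(FPKM + 1) in the libraries with FPKM sums above 800000 minus the others of the same group averaged over 3 groups, against the GC content of its annotated transcript. Hk1 and Pfkl lie lowest, near -2.1, and Hilpda highest, at 0.66.

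Without these 4 libraries, an alternative chosen after the values were seen in which IL-10-Fc has 1 library and borrows the spread of the other groups, more members were called: 16 in BF10 against Ctrl-IgG, 16 in IL-10-Fc against Ctrl-IgG and 17 in BF10 against aCSF1R. These were 47.1%, 47.1% and 50% of the members, where 40.4%, 39.7% and 40.6% of all tested genes were called, so that the calls grew among all genes too. In BF10 against Ctrl-IgG 6 of the 16 were higher and 10 lower (background 18.8% and 21.6%), in IL-10-Fc against Ctrl-IgG 10 and 6 (15.9% and 23.8%), and in BF10 against aCSF1R 6 and 11 of 17 (18.9% and 21.7%). Adm joined the higher members, with 1.67 (SE 0.20, limma adjusted p 0.00145) in BF10 and 2.30 (SE 0.25, limma adjusted p 0.00153) in IL-10-Fc against Ctrl-IgG. Slc2a3 and Pfkfb4 joined them in BF10 against Ctrl-IgG, with 0.97 (SE 0.19, limma adjusted p 0.00683) and 0.86 (SE 0.26, limma adjusted p 0.0310). Pfkp (-0.78, SE 0.13, limma adjusted p 0.00381), Hilpda (-1.09, SE 0.25, limma adjusted p 0.0125), Ankrd37 (-0.93, SE 0.29, limma adjusted p 0.0353) and Bnip3 (-0.73, SE 0.19, limma adjusted p 0.0192) joined the lower members in BF10 against Ctrl-IgG. In the lone IL-10-Fc library Slc2a1, Pfkl, the main Aldoa gene, Ndrg1 and Hif1a were also called higher than in Ctrl-IgG, by 0.59 to 1.44. Pkm, Gpi1, Hk1, Pgk1, Tpi1 and Ldha were still not called in any comparison. Ldha, at -0.46 (SE 0.105, limma adjusted p 0.0116) in BF10 against Ctrl-IgG, passed the p but not the fold threshold. The median change of the members in BF10 against Ctrl-IgG was -0.04, with -0.11 over all tested genes. Members were thus called in both directions in BF10 against Ctrl-IgG. Car9, Adm, Egln3, Aldoc, Slc2a3 and Pfkfb4 were higher. Pdk1, Slc16a3, P4ha2, Hilpda, Ankrd37, Bnip3 and Pfkp were among the lower members.

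**Figure D5:**
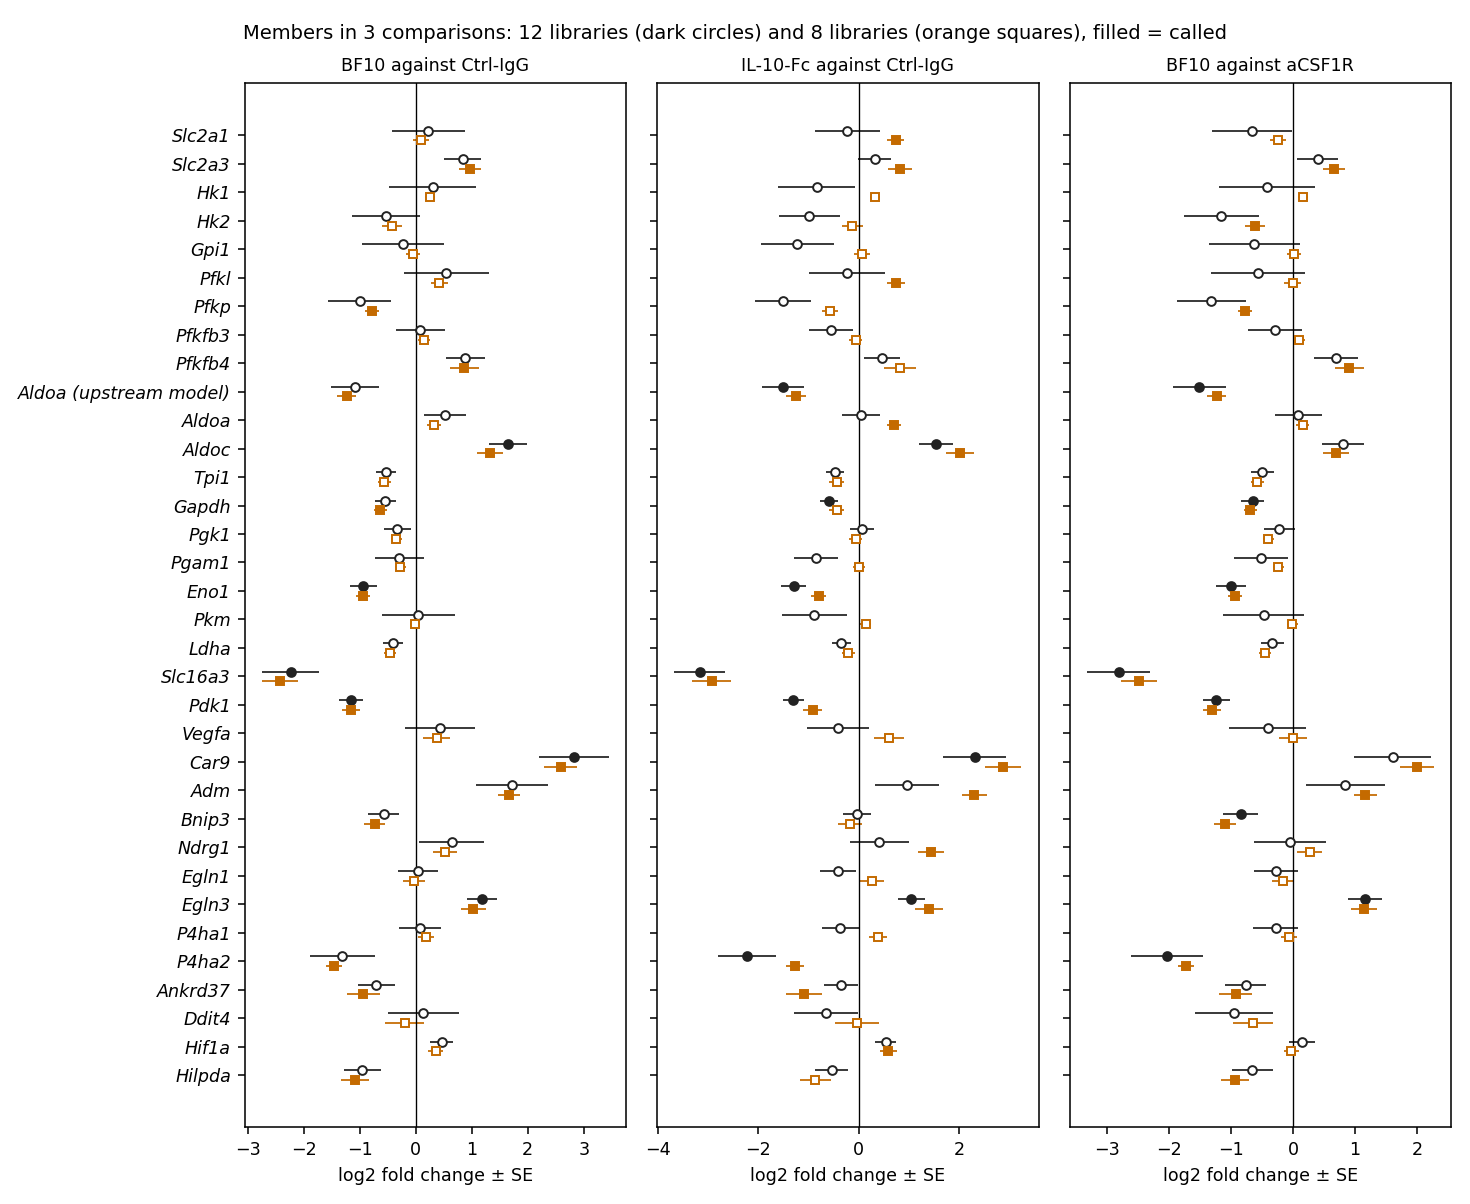
Log2 fold change ± SE of the 34 members (rows) in 3 comparisons, from 12 libraries (dark circles) and from the 8 libraries with FPKM sums under 800000 (orange squares), filled where called. Slc16a3, Pdk1, Car9, Aldoc and Egln3 keep their sides in both, while the error bars of Hk1, Gpi1, Pfkl and Pkm are shorter in the 8 libraries.

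Pairs of related enzymes were also compared within each library, where a factor common to all its genes cancels. The shift of the 4 libraries above was correlated with GC content, and such a shift need not cancel. The annotated transcripts of P4ha2 and P4ha1, for example, had a GC content of 54.2% and 45.7%. The ratio of P4ha2 to P4ha1 was 0.432 in Ctrl-IgG replicate 2 and 0.870 and 0.974 in replicates 1 and 3. The 7 pairs were chosen after the values were seen, so the ratios of FPKM are descriptions. Pfkfb4 over Pfkfb3 was 0.305 to 0.462 under Ctrl-IgG or aCSF1R and 0.597 to 1.03 under IL-10-Fc or BF10. P4ha2 over P4ha1 was 0.432 to 1.01 in the former and 0.131 to 0.314 in the latter. Neither ratio overlapped between the pairs of groups, like Egln3 over Egln1 and Aldoc over Aldoa above. The share of other gene pairs without overlap was not measured. Hk2 over Hk1 was 1.06 to 1.78 under Ctrl-IgG or aCSF1R and 0.628 to 2.00 in the others, and Slc2a3 over Slc2a1 and Pfkp over Pfkl overlapped too.

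The component comparisons gave no call among the members. In aCSF1R against Ctrl-IgG, 0 of 34 members and 0 of all tested genes (0%) passed the limma call, with 437 genes and 1 member, Aldoc, at an unadjusted p under 0.05. The fold changes of Slc16a3 and Pdk1 there were 0.59 (SE 0.51) and 0.08 (SE 0.21). In BF10 against IL-10-Fc, 0 members passed, where 0.0126% of all tested genes did, and 0 members had an unadjusted p under 0.05, as 828 genes did. Slc16a3 was 0.94 (SE 0.51) and Pdk1 0.15 (SE 0.21) there. The last contrast set BF10 against its parts added together. It was called in 0 members and in 0.00632% of tested genes, with 412 genes and 0 members at an unadjusted p under 0.05. This contrast was 0.35 (SE 0.72) for Slc16a3, 0.07 (SE 0.30) for Pdk1 and -0.70 (SE 0.88) for Car9. With standard errors of this size, a missed threshold does not show equal levels. Every alternative run also called 0 members in these 3 contrasts.

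Other genes of the pathway were taken from lists, described by counts, against 11.8% of all tested genes called higher and 13.2% lower in BF10 and 10.1% and 23.6% in IL-10-Fc against Ctrl-IgG. Of 15 other glycolysis genes tested, 2 (Eno1b and Eno3) were called higher and 3 lower in BF10 against Ctrl-IgG (13.3% and 20%, median log2 fold change -0.21), and 2 higher and 4 lower in IL-10-Fc against Ctrl-IgG (13.3% and 26.7%, median -0.59). Ldhb, the lactate dehydrogenase subunit that favours pyruvate formation, ranged from 62.8 to 83.3 FPKM after Ctrl-IgG or aCSF1R and from 5.94 to 19.1 FPKM in the others. It fell by 2.44 (SE 0.28, limma adjusted p 0.00019) on the log2 scale in BF10 against Ctrl-IgG. Tigar, a phosphatase that restrains glycolysis, fell by 1.52 (SE 0.29, limma adjusted p 0.00319), and Eno3, the muscle enolase, rose by 2.23 (SE 0.49, limma adjusted p 0.00712). Of 9 tested regulators of HIF, 1 (11.1%) was lower in BF10 and 3 (33.3%) in IL-10-Fc against Ctrl-IgG. Vhl, the ubiquitin ligase subunit that binds hydroxylated HIF-1alpha, ranged from 21.7 to 28.8 FPKM after Ctrl-IgG or aCSF1R and from 12.04 to 15.1 FPKM in the others (-0.86 in BF10 against Ctrl-IgG, SE 0.19, limma adjusted p 0.00648). Cited2 and Hif1an, which restrain HIF transcription, were called lower in IL-10-Fc (-2.04, SE 0.59, limma adjusted p 0.0225, and -1.49, SE 0.51, limma adjusted p 0.0449). Both overlapped with Ctrl-IgG. Cited2 was 13.2, 8.46 and 45.2 FPKM under IL-10-Fc and 136, 35.6 and 84.4 FPKM under Ctrl-IgG. Hif1an was 1.70, 1.61 and 6.11 FPKM against 12.8, 4.83 and 12.7 FPKM. The lowest values were again those of IL-10-Fc replicates 1 and 2, which have high FPKM sums. Hif1a itself was not called (0.47, SE 0.21, in BF10 and 0.54, SE 0.21, in IL-10-Fc). Among 31 further HIF targets, 3 were higher and 7 lower in BF10 against Ctrl-IgG (9.68% and 22.6%, median -0.16), and 3 higher and 8 lower in IL-10-Fc (9.68% and 25.8%, median -0.32). Stc2 (stanniocalcin 2) fell by 1.39 (SE 0.35, limma adjusted p 0.0144) and haem oxygenase Hmox1 by 1.78 (SE 0.54, limma adjusted p 0.0334) in BF10 against Ctrl-IgG. The transferrin receptor Tfrc was at -2.497 (SE 0.49, limma adjusted p 0.00384), whereas the collagen cross-linker Lox rose by 2.13 (SE 0.62, limma adjusted p 0.0273). Of 23 genes of pyruvate oxidation and the citrate cycle, 1 was higher and 1 lower in BF10 (4.35% each) and 1 higher and 5 lower in IL-10-Fc against Ctrl-IgG (4.35% and 21.7%). Shares of lists this small move by several points with 1 gene, and no list is set apart from all tested genes by them. Pdk3, another pyruvate dehydrogenase kinase, was the lower gene in BF10 (-0.90, SE 0.23, limma adjusted p 0.0146). Citrate synthase Cs (-1.99, SE 0.57, limma adjusted p 0.0202) and malate dehydrogenase Mdh2 (-1.46, SE 0.41, limma adjusted p 0.0181) were among the lower genes in IL-10-Fc. Cs was 17.9, 13.4 and 76.1 FPKM there and 130.9, 76.3 and 129 FPKM in Ctrl-IgG. Mdh2 was 101, 72.7 and 251 FPKM against 361, 289 and 375 FPKM. In both genes the lowest values were those of IL-10-Fc replicates 1 and 2, which have high FPKM sums.

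Markers of cell types moved with the same groups. The 5 simple epithelial markers summed to at most 8.9 FPKM after Ctrl-IgG or aCSF1R and to 511 to 1347 FPKM in the others. The 10 neutrophil markers summed to 37.8 to 351 FPKM in the former and 550.0 to 4620 FPKM in the latter. The 10 macrophage markers summed to 430 to 792 FPKM under Ctrl-IgG, 257 to 277 FPKM under aCSF1R and 810.3 to 1284 FPKM in the others. Of these 10, 3 were called higher in BF10 and 3 in IL-10-Fc against Ctrl-IgG, where 11.8% and 10.1% of all tested genes were. Csf1r itself overlapped, at 7.33 to 22.1 FPKM under Ctrl-IgG and 11.7 to 48.6 FPKM under IL-10-Fc. The 16 skeletal muscle markers were high in Ctrl-IgG replicate 3 (1435 FPKM) and aCSF1R replicates 1 and 2 (926 and 883 FPKM) and 23.2 to 173 FPKM in the other libraries. The 14 keratinocyte markers followed these 3 libraries, at 1685 to 2470 FPKM, and were 6.8 to 65.0 FPKM elsewhere. The labels call the cells oral cancer, and the defining markers of stratified and of simple epithelium were both low in Ctrl-IgG replicates 1 and 2 and aCSF1R replicate 3. In IL-10-Fc the muscle marker Myh4 and the keratinocyte marker Dsg3 were listed at 0 in all 3 libraries. The 10 proliferation genes overlapped, at 1003 to 1563 and 798 to 1243 FPKM. With the muscle marker level as a covariate, Slc16a3, Pdk1 and Aldoc kept their calls, and Gapdh, P4ha2 and the upstream Aldoa model lost theirs. Egln3 lost its calls in IL-10-Fc against Ctrl-IgG and in BF10 against aCSF1R, and Eno1 lost that in BF10 against aCSF1R. The part of the epithelial, neutrophil and macrophage markers in the results for the members was not tested.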

How the data were processed

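The mRNA of 12 tumours was sequenced on a NextSeq 550 after TruSeq Stranded mRNA preparation. The authors deposited 1 table of FPKM values per gene and library. The submitters' processing notes name STAR 2.7.5a, RSEM 1.3.3 and DESeq2 1.30.0 and the mouse build mm10 (GRCm38), without roles, and the strand setting of the counting is not given in the sources used here. The authors' tables of DESeq2 fold changes and p-values were not used. Since the FPKM table holds no counts, genes reaching 1 FPKM in 3 or more libraries were tested on log2(FPKM + 1), a scale that understates changes of low genes, with limma 3.58.1 (R 4.3.3; moderated variance with a trend, all 12 libraries in 1 fit). Calls needed a Benjamini-Hochberg adjusted p under 0.05 over all tested genes and a fold of at least 1.5. The fit was tested on simulated data. Their noise was drawn independently for each gene, with its SD capped at the median over genes. They held no shift common to the genes of a library, so the test does not cover the library shifts described above. Groups came from the treatment labels and replicate numbers from accession order. The members and lists were chosen with earlier results of these data known. Every member is named, with values by library for those called in at least 1 comparison and for the leaders of the F test, and up to 4 called genes are named from each further list. Sequence sharing was measured as 50-base words of annotated transcripts. Leaving out the 4 libraries with high FPKM sums, adjusting for GC content and length, and summing members with their copies were chosen after seeing the data. The number of reads per library is not in the table, so the precision rests on the spread between libraries.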

Additional observations from a re-analysis of the deposited data

How the results depend on the processing

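Of the 26 alternatives (25 for the contrast of BF10 with its added parts and for the F test), none reversed a called member, and 0 members were called under any of them in BF10 against IL-10-Fc, in aCSF1R against Ctrl-IgG and in the contrast with the added parts. The counts of called members elsewhere moved, and the share of all tested genes called, given in brackets, moved with most of them. In BF10 against Ctrl-IgG, 6 members (24.9% of all genes) became 11 with median-of-ratios size factors (6 higher; 27.4%), 11 with quantile normalization (29.4%), 15 with the log2 FPKM sum as a covariate (43.6%), 16 in the 8 libraries with low FPKM sums (40.4%) and 13 after adjustment for transcript GC content and length (34.3%), and 5 to 11 when 1 library was left out. In IL-10-Fc against Ctrl-IgG, 9 (33.7%) became 16 with the FPKM sum (45.2%), 5 with the muscle marker level as a covariate (22.4%), 16 in the 8 libraries (39.7%), 4 when only the groups compared were fitted (17.3%), and 6 to 17 when 1 library was left out. In BF10 against aCSF1R, 8 (25%) became 3 after rescaling to TPM (20.6%), 16 with the FPKM sum (42.6%), 3 with the muscle marker level (15.9%), 17 in the 8 libraries (40.6%), 13 after the GC and length adjustment (34.4%) and 5 with copies summed (25%), and 4 to 12 when 1 library was left out. The lowest count, 4, came without aCSF1R replicate 1, aCSF1R replicate 2 or BF10 replicate 2, and 5 were left without aCSF1R replicate 3. The F test's 9 (34.1%) became 20 with the FPKM sum (57.9%), 4 with the muscle marker level (16.4%), 23 in the 8 libraries (54.7%) and 8 to 22 when 1 library was left out. IL-10-Fc replicate 3, the only library of its group with a low FPKM sum, gave the highest counts when left out, 11 (31.2%), 17 (50.9%), 12 (32.1%) and 22 (59.4%). Size factors moved the median of all tested genes in IL-10-Fc against Ctrl-IgG from -0.39 to 0.00 and that of the members from -0.41 to 0.06. The lower share of the calls in BF10 against aCSF1R, 7 of 8, was 8 of 13 after the GC and length adjustment and 11 of 17 in the 8 libraries. The cause of these moves was not tested. With the number in the titles as a term of 2 levels (up to 4, or above), 8, 10 and 10 members were called in the 3 comparisons. With the libraries numbered 1 to 4 only, which leaves BF10 with 1 library assumed to vary like the other groups, 5, 11 and 8 were called, and Egln3 (1.12, limma adjusted p 0.0917) and Car9 (2.23, limma adjusted p 0.110) lost their calls in BF10 against Ctrl-IgG. No paired analysis was possible because the groups compared share at most 1 title number (6, in 1 library each of aCSF1R, IL-10-Fc and BF10, and in none of Ctrl-IgG), and the replicate numbers follow accession order. Depth could not be used to set limits on low values, since the table holds no counts.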
